A study of Mus musculus with 16 samples.

Results

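The 9 genes Nos2, Arg1, Arg2, Ass1, Gch1, Ido1, Ido2, Kynu and Acod1 encode enzymes that use arginine and tryptophan or make nitric oxide and itaconate, and they were taken by gene name from both deposited count tables. All 9 were found, among 56980 genes in the IFNγ experiment and 55414 genes in the untreated experiment. KPC1199 is a murine pancreatic ductal adenocarcinoma line from a tumor of a mouse in which Pdx-cre acts on the driver alleles of the KPC model, mutant Trp53 among them, so every library shares these alleles. Cells carried a non-targeting control guide (sgCtrL, labelled wild type) or a guide against Sin3B (Sin3Bsg1), a subunit of histone deacetylase complexes, and were stable lines under lentiviral Cas9 and puromycin selection, for which the sources used here do not say whether they are clones or pools. In the IFNγ experiment cells of each guide were left without IFNγ or received it at 10 ng per mL over 24 h, with 3 RNA-seq libraries in each of the 4 groups, and the untreated experiment held 2 libraries of each guide without IFNγ. The comparisons ask whether IFNγ induces these enzymes in each genotype and which of them stay silent.

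NOS2 is the inducible nitric oxide synthase, which turns arginine into nitric oxide and citrulline. ARG1 and ARG2 compete for the same arginine and split it into ornithine and urea, ASS1 starts the remaking of arginine from citrulline, and GCH1 opens the synthesis of tetrahydrobiopterin, a cofactor of the nitric oxide synthases. IDO1 and IDO2 open the indole ring of tryptophan at the head of the kynurenine pathway, KYNU cuts kynurenine further down, and ACOD1 draws cis-aconitate from the tricarboxylic acid cycle to make itaconate. In macrophages and other cells given IFNγ, Nos2, Gch1, Ido1 and Acod1 are textbook targets of interferon signalling.

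Total counts ran from 18128055 to 27056903 per library in the IFNγ experiment and from 29683181 to 32311721 in the untreated experiment. Sin3b transcript was reduced but not absent under its guide, by log2 fold changes of −1.22 with IFNγ, −1.24 without it and −1.28 in the untreated experiment (SE 0.05 in each, edgeR adjusted p = 5.22e-10, 5.10e-10 and 1.19e-11). These are RNA values and do not measure the protein. The paper states that knockout efficiency of its edited lines was checked by western blot, amplicon sequencing or both. Irf1, Socs1, Gbp2 and Cxcl10, listed to check the treatment, all rose with IFNγ in both genotypes, with log2 fold changes from 3.51 (Irf1) to 10.50 (Cxcl10) in sgCtrL and from 3.57 to 9.90 in Sin3Bsg1. 7 of 8 ductal epithelial markers had a group mean of at least 1 CPM (counts scaled to the normalised library size) in every group, and Cldn4 did not. Of 12 macrophage and leukocyte markers, Adgre1, Fcgr1 and Cd3e had 0 counts in all 16 libraries, and only Cd68 and Mrc1 passed 3 counts in any library of the IFNγ experiment, with the summed level of the list at 32.5 to 37.5 CPM without IFNγ and 24.8 to 35.4 CPM with it. Of 8 fibroblast markers, Pdgfra and Pdgfrb reached 1 CPM in every group and Acta2 in the groups with IFNγ, and no endothelial marker of 5 reached 1 CPM. The summed fibroblast list was lower with IFNγ (165 to 192 CPM against 223 to 268). Its highest gene, Pdgfra, had means of 165 CPM in sgCtrL and 142 CPM in Sin3Bsg1 with IFNγ, against 233 and 194 CPM without it. Pdgfrb was lower too, whereas Acta2 was higher, at 5.67 and 5.23 CPM against 0.314 and 0.446 CPM. The cells were a cultured tumor line. The part of these markers in the results was not tested, and in bulk RNA fewer cells of a type and less RNA per cell cannot be told apart. The sgCtrL with IFNγ replicate 1 library stood apart from its replicates, since its counts differed from theirs by an average chi-square of 23.2 and 19.5 a gene, whereas the other 2 differed by 4.12 and pairs elsewhere by 2.43 to 9.63. To a smaller degree so did Sin3Bsg1 with IFNγ replicate 1, which differed from its replicates by 6.91 and 9.63, whereas these differed by 3.52.

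IFNγ induced Nos2, Ido1, Ido2 and Acod1 in both genotypes and left Gch1 at its level without IFNγ. 6 of the 9 genes passed the filter on low counts in the IFNγ experiment, and Ido1 and Acod1 passed it only through the libraries with IFNγ. Ido1 and Acod1 could thus be counted only by being high with IFNγ. The counts and medians below describe the 6 genes and do not test them against all genes. In sgCtrL, 4 of these 6 rose and 1, Arg2, fell, where 15.7% of the 14913 genes tested rose, 14.5% fell and 30.2% moved either way (edgeR, adjusted p under 0.05). In Sin3Bsg1 the same 4 rose and none fell, where 16.1% of all genes rose, 12.3% fell and 28.4% moved either way. The median log2 fold change of the 6 genes was 3.90 in sgCtrL and 3.78 in Sin3Bsg1, or 2.77 and 3.47 with Acod1 placed at its lower bound, against −0.00 and 0.01 over all genes tested. Arg1, Ass1 and Kynu did not reach the filter and were near or at 0 in every group. Without sgCtrL with IFNγ replicate 1 the 4 genes that rose still did, while Arg2 no longer passed the threshold without it (log2 fold change −1.35, SE 0.53, adjusted p = 0.064).

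**Figure D1:**
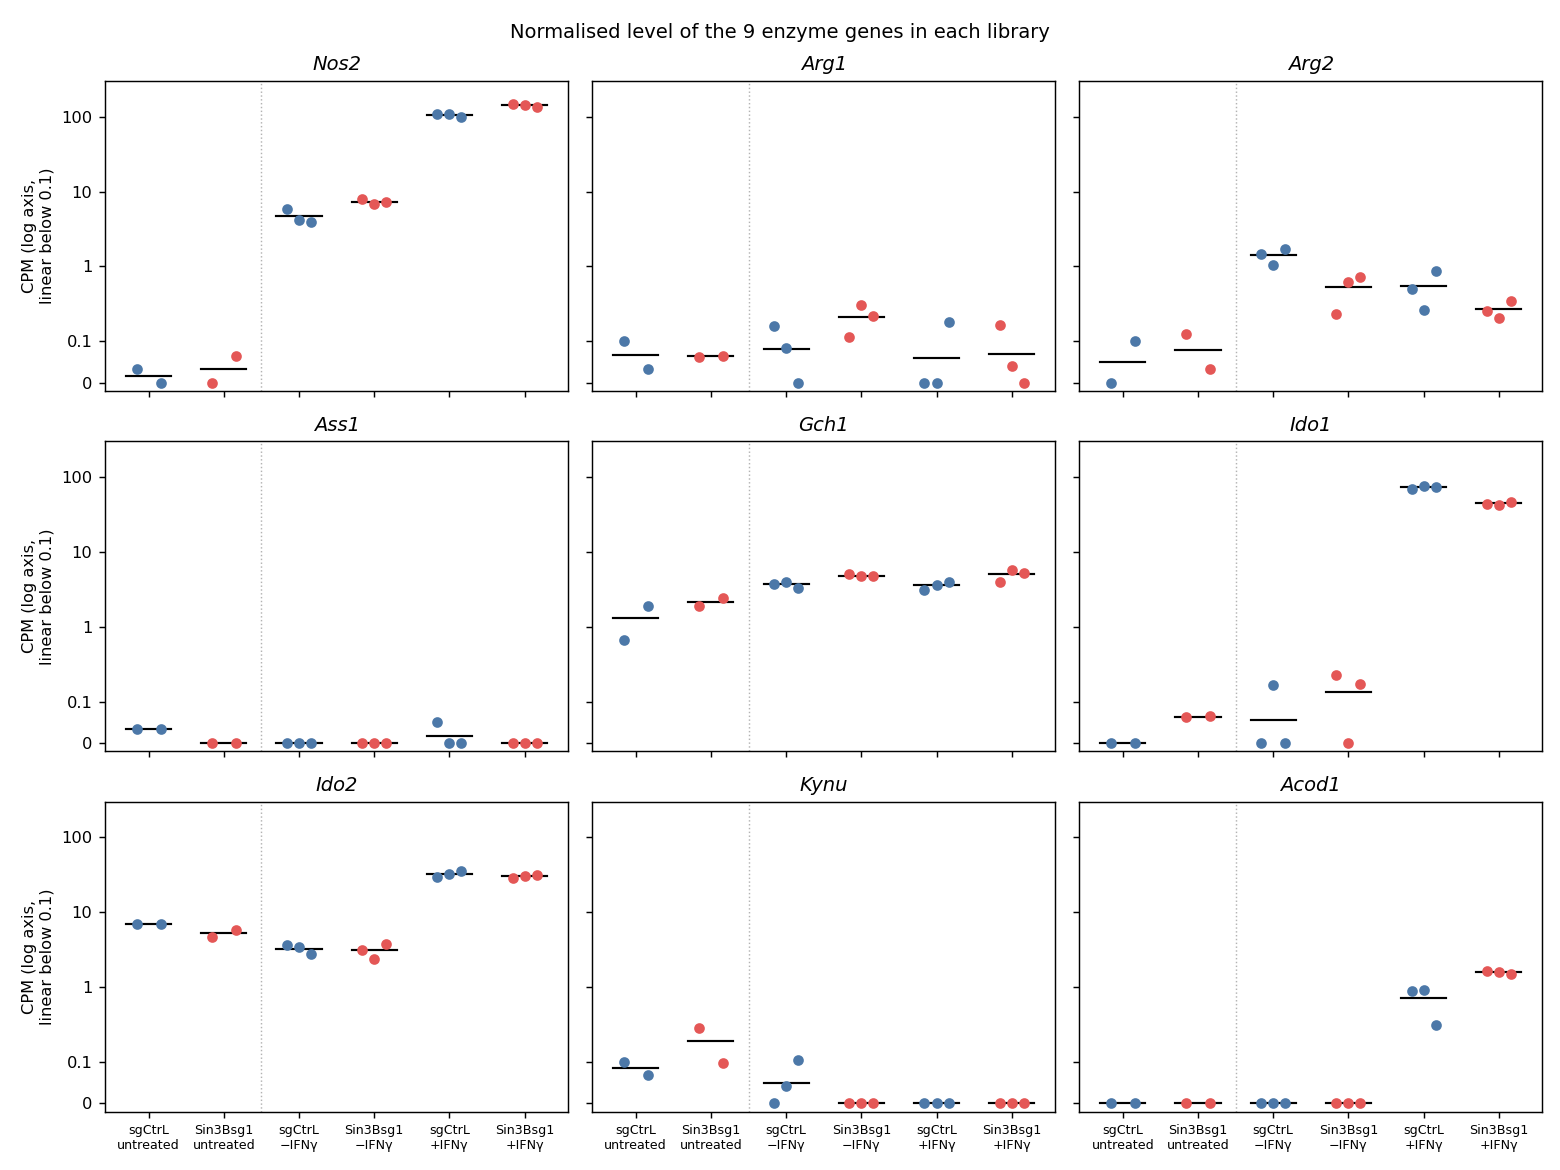
CPM of the 9 genes in each of the 16 libraries, on an axis that is logarithmic above 0.1 and linear below it, where points are libraries, blue for sgCtrL and red for Sin3Bsg1, bars are group means, and the dotted line parts the untreated experiment from the IFNγ experiment. Nos2, Ido1, Ido2 and Acod1 sit higher with IFNγ in all 6 libraries, Gch1 stays between 3.13 and 5.77 CPM in the IFNγ experiment, and Ass1 and Kynu stay at or near 0.

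Nos2 (ENSMUSG00000020826, chr11:78811613-78851080 in GRCm39, plus strand, 27 exons in its canonical transcript) was expressed at a low level without IFNγ and was among the strongly induced genes. Without IFNγ it measured 5.93, 4.17 and 3.96 CPM in sgCtrL and 7.84, 6.83 and 7.31 CPM in Sin3Bsg1. With IFNγ it measured 110.0, 108.5 and 97.7 CPM in sgCtrL and 147, 145 and 135 CPM in Sin3Bsg1. All 6 libraries with IFNγ lay far above all 6 without it, and in both conditions every Sin3Bsg1 library lay above every sgCtrL library. The log2 fold change with IFNγ was 4.50 in sgCtrL (SE 0.10, adjusted p = 5.29e-15) and 4.28 in Sin3Bsg1 (SE 0.09, adjusted p = 2.66e-15). As a ratio of summed counts this is 22.7 (95% counting interval 20.2 to 25.7) and 19.4 (17.8 to 21.2), where intervals cover counting error only. Among the genes that rose and had a mean of at least 5 CPM with IFNγ, Nos2 ranked 70 of 2100 by fold change in sgCtrL and 79 of 2158 in Sin3Bsg1.

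Nos2 was also higher under the Sin3B guide. Sin3Bsg1 was the sole guide against Sin3B in these libraries. Here and for the genes below, loss of Sin3B thus cannot be told apart from other differences between the lines. With IFNγ the difference in Nos2 was 1.35-fold (log2 0.43, SE 0.07, adjusted p = 5.75e-04), and without IFNγ it was 1.58-fold (log2 0.66, SE 0.13, adjusted p = 0.0018). Both calls held under all 18 alternative analyses, with adjusted p between 1.54e-10 and 0.00477 with IFNγ and between 4.12e-08 and 0.0174 without it. The test of whether IFNγ acted differently in the genotypes did not pass (interaction −0.22 on the log2 scale, SE 0.15, adjusted p = 0.984), so the higher Nos2 under the Sin3B guide was not shown to differ between the conditions. The gene overlaps the non-coding gene Gm71838 on the other strand, and since the strand setting of the counting is not given in the sources used here, reads of the overlapping genes cannot be told apart.

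The 2 experiments differed widely in Nos2. In the untreated experiment its counts were 1 and 0 in sgCtrL and 0 and 2 in Sin3Bsg1, at or under the floor of 3 counts per library, whereas the libraries without IFNγ of the IFNγ experiment held 74 to 206. Gbp2, one of the treatment check genes, went the same way, with 7.14 and 11.2 CPM without IFNγ in the IFNγ experiment and 2.18 and 1.73 CPM in the untreated experiment (means of sgCtrL and Sin3Bsg1). Irf1 did so to a smaller degree, with means of 76.0 and 76.5 CPM against 58.0 and 52.9 CPM. Cxcl10 did not, with means of 0.0678 and 0.139 CPM against 0.135 and 0.319 CPM, nor did Socs1, with means of 3.40 and 3.70 CPM against 5.105 and 5.57 CPM. The tables were made apart, so no test joins them, and an effect of the experiment cannot be told apart from how its cells and libraries were handled.

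Of the other arginine enzymes, Arg2, the mitochondrial arginase, was low and moved opposite to Nos2. Its counts without IFNγ were 27, 25 and 32 in sgCtrL and 6, 14 and 17 in Sin3Bsg1, and with IFNγ they were 10, 7 and 19 in sgCtrL and 6, 5 and 8 in Sin3Bsg1. The 3 sgCtrL libraries without IFNγ were higher than all other libraries of the experiment, and the remaining 9 overlapped. In sgCtrL IFNγ lowered Arg2 by a log2 fold change of −1.38 (SE 0.46, adjusted p = 0.0319), and in Sin3Bsg1 the change of −0.95 did not pass the threshold (SE 0.54, adjusted p = 0.214). Without IFNγ, Arg2 was lower under the Sin3B guide by −1.42 (SE 0.46, adjusted p = 0.042), and with IFNγ the difference was −0.99 (SE 0.54, adjusted p = 0.246). The interaction was 0.43 (SE 0.73, adjusted p = 0.993), so neither effect was shown to depend on the other.

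Both Arg2 calls rest on few counts. The fall with IFNγ in sgCtrL passed in 13 of 17 alternatives (adjusted p 0.0157 to 0.13) and was lost without sgCtrL with IFNγ replicate 1 or 2, or sgCtrL without IFNγ replicate 1 or 3 (adjusted p = 0.064, 0.13, 0.0835 and 0.119). The difference between guides without IFNγ passed in 9 of 17 alternatives (adjusted p 0.011 to 0.181), and was kept when Sin3Bsg1 without IFNγ replicate 3 or any sgCtrL with IFNγ library was left out and lost without any of the other 8 libraries. Arg2 (ENSMUSG00000021125, chr12:79177524-79203075, plus strand, 8 exons) overlaps the protein-coding gene Vti1b and the non-coding gene Gm48780 on the other strand. As for Nos2, reads of the overlapping genes cannot be told apart, so part of these few counts may belong to them. In the untreated experiment Arg2 held 0 to 4 counts and was not tested.

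Arg1, the cytosolic arginase known as a marker of alternatively activated macrophages, was barely detected (ENSMUSG00000019987, chr10:24791118-24803817, minus strand). Its counts without IFNγ were 3, 2 and 0 in sgCtrL and 3, 7 and 5 in Sin3Bsg1, and with IFNγ 0, 0 and 4 in sgCtrL and 4, 1 and 0 in Sin3Bsg1. No group stood clear of its counterpart. The ratio of summed counts with and without IFNγ was 0.712 in sgCtrL (95% counting interval 0.141 to 3.31) and 0.336 in Sin3Bsg1 (0.0955 to 0.972), and Arg1 did not enter the tests. In the untreated experiment it held 1 to 3 counts.

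Ass1, the argininosuccinate synthase, was silent (ENSMUSG00000076441, chr2:31352181-31410862, plus strand). A single count fell in 1 of the 12 libraries of the IFNγ experiment, sgCtrL with IFNγ replicate 1, and the untreated experiment had 1 count in each sgCtrL library and none in the Sin3Bsg1 libraries. With IFNγ, 3 counts correspond to group means of 0.133 CPM in sgCtrL and 0.125 CPM in Sin3Bsg1, a level that these libraries could have missed. Its partner Asl, the lyase that completes the remaking of arginine, was expressed at a mean of 44.6 ± 1.79 CPM without and 33.7 ± 4.34 CPM with IFNγ in sgCtrL (SD, n = 3).

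Gch1, the gate of tetrahydrobiopterin synthesis, was expressed in every library and did not rise with IFNγ (ENSMUSG00000037580, chr14:47391346-47426915, minus strand, 6 exons). Without IFNγ it measured 3.78, 3.97 and 3.26 CPM in sgCtrL and 4.99, 4.79 and 4.73 CPM in Sin3Bsg1. With IFNγ it measured 3.13, 3.63 and 3.92 CPM in sgCtrL and 4.01, 5.77 and 5.28 CPM in Sin3Bsg1. The libraries with and without IFNγ overlapped in each genotype, and the Sin3Bsg1 libraries lay above the sgCtrL libraries in each condition. The log2 fold change with IFNγ was −0.04 in sgCtrL (SE 0.17, adjusted p = 0.876) and 0.05 in Sin3Bsg1 (SE 0.16, adjusted p = 0.843), and the counting intervals of the ratio, 0.805 to 1.17 and 0.894 to 1.21, had upper bounds far below the ratio of Nos2.

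Between guides, Gch1 was 1.41-fold higher with IFNγ under the Sin3B guide (log2 0.49, SE 0.16, adjusted p = 0.0481) and 0.39 higher on the log2 scale without IFNγ, which did not pass (SE 0.16, adjusted p = 0.117). The call with IFNγ is at the edge of the threshold. It held in 3 of 18 alternatives (adjusted p 0.0162 to 0.201) and was lost without any one of the 12 libraries other than Sin3Bsg1 with IFNγ replicate 1 (adjusted p 0.0519 to 0.201). In the untreated experiment Gch1 held 20 and 56 counts in sgCtrL and 61 and 75 in Sin3Bsg1, a log2 difference of 0.75 that did not pass (SE 0.37, adjusted p = 0.149) and that became 1.68 without sgCtrL replicate 2 (adjusted p = 0.00304). 2 processed pseudogenes, Gm49134 and Gm18811, lie within the Gch1 locus.

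Ido1, the main tryptophan-degrading enzyme that IFNγ switches on, went from near 0 to the highest length-scaled level of the 9 genes in sgCtrL (given below in TPM). Ido1 (ENSMUSG00000031551, chr8:25074150-25087025) and Ido2 (ENSMUSG00000031549, chr8:25021908-25066349) are tandem genes of 10 exons each on the minus strand with 7800 bases between them. Without IFNγ, Ido1 had 0, 4 and 0 counts in sgCtrL and 6, 0 and 4 in Sin3Bsg1. With IFNγ it had 1396, 2012 and 1649 counts in sgCtrL, or 69.4, 76.0 and 74.3 CPM, and 1056, 1062 and 1094 counts in Sin3Bsg1, or 44.1, 42.9 and 47.0 CPM. The groups with and without IFNγ were far apart, and with IFNγ every Sin3Bsg1 library lay below every sgCtrL library. The log2 fold change with IFNγ was 10.02 in sgCtrL (adjusted p = 1.39e-14) and 8.28 in Sin3Bsg1 (adjusted p = 5.04e-14). Since the base is 4 and 10 counts over 3 libraries, the size is loosely set, with ratios of summed counts of 1120 (95% counting interval 439 to 4130) and 323 (176 to 675). It ranked 13 of 2100 and 29 of 2158 among the induced genes. All 4 counts of the sgCtrL base fell in replicate 2, and without that library the fitted change was 13.71, with no counts left in the base, while in Sin3Bsg1 leaving out 1 library gave 7.75 to 8.92.

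With IFNγ, Ido1 was 1.64-fold lower under the Sin3B guide (log2 −0.71, SE 0.10, adjusted p = 7.56e-05), which was the opposite direction to Nos2 in the same libraries. The call held in all 17 alternatives that could test it (adjusted p 2.82e-20 to 0.00126), and the value was −0.74 without sgCtrL with IFNγ replicate 1. Without IFNγ the difference of 1.02 did not pass (SE 0.93, adjusted p = 0.522) and ran from 0.38 to 4.71 when 1 library was left out, with the 4.71 without sgCtrL without IFNγ replicate 2. The interaction was −1.73 (SE 0.94, adjusted p = 0.934, −5.42 to −1.09 when 1 library was left out), so the fold change was not shown to differ between the genotypes. The untreated experiment held 0 counts in both sgCtrL libraries and 2 counts in each Sin3Bsg1 library.

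Ido2, the paralog of low catalytic activity, had a measurable base and rose in both genotypes, by ratios of summed counts of 9.92 in sgCtrL (95% counting interval 8.59 to 11.5) and 9.74 in Sin3Bsg1 (8.49 to 11.2). Without IFNγ it measured 3.61, 3.42 and 2.78 CPM in sgCtrL and 3.16, 2.39 and 3.74 CPM in Sin3Bsg1, and with IFNγ 29.2, 32.8 and 35.4 CPM in sgCtrL and 29.0, 30.5 and 31.2 CPM in Sin3Bsg1. All libraries with IFNγ were above all libraries without it, and the genotypes overlapped in both conditions. The log2 fold change with IFNγ was 3.31 in sgCtrL (SE 0.12, adjusted p = 5.23e-12) and 3.28 in Sin3Bsg1 (SE 0.12, adjusted p = 4.03e-12). The difference between guides was −0.10 with IFNγ (SE 0.09, adjusted p = 0.518) and −0.08 without it (SE 0.16, adjusted p = 0.799), and the interaction was −0.02 (SE 0.19, adjusted p = 0.999).

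In the untreated experiment Ido2 had the highest length-scaled level of the 9 genes, at means of 5.82 TPM in sgCtrL and 4.37 TPM in Sin3Bsg1. It had 206 and 205 counts in sgCtrL and 151 and 177 in Sin3Bsg1. The Sin3Bsg1 libraries were below the sgCtrL libraries by a log2 fold change of −0.41 (SE 0.15, adjusted p = 0.042). The call passed in 5 of 9 alternatives (adjusted p 0.0168 to 0.292) and was lost without Sin3Bsg1 replicate 1 or either sgCtrL library (adjusted p = 0.292, 0.0984 and 0.0988). Of the 2 genes tested there, 1 fell and none rose, where 16% of the 14589 genes tested fell, 15.1% rose and 31.1% moved either way.

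Kynu, the kynureninase, was silent in the IFNγ experiment (ENSMUSG00000026866, chr2:43445309-43572734, plus strand, 14 exons). It had 0, 1 and 2 counts in sgCtrL without IFNγ and 0 counts in the 9 other libraries, so IFNγ brought no count of it in either genotype. A level up to 0.133 CPM in sgCtrL and 0.125 CPM in Sin3Bsg1 could have gone unseen with IFNγ. The untreated experiment held 3 and 2 counts in sgCtrL and 9 and 3 in Sin3Bsg1, and the length given to the gene differs between the tables, 2733 against 2008 bases.

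Acod1, the itaconate-forming enzyme of activated macrophages, was absent without IFNγ and appeared at a low level with it (ENSMUSG00000022126, chr14:103284413-103294009, plus strand, 5 exons). All 10 libraries without IFNγ in both experiments had 0 counts. With IFNγ it had 18, 24 and 7 counts in sgCtrL and 39, 39 and 35 in Sin3Bsg1, at means of 0.706 ± 0.338 and 1.57 ± 0.0633 CPM (SD, n = 3). Every library with IFNγ was above the floor of 3 counts per library, against which Acod1 was at least 4.73-fold higher in sgCtrL and at least 12.6-fold higher in Sin3Bsg1 (adjusted p = 3.78e-04 and 2.63e-05). The Sin3Bsg1 libraries lay above the sgCtrL libraries without overlap, and the log2 difference of 1.14 did not pass the threshold (SE 0.41, adjusted p = 0.0862, and 0.0775 to 0.239 over 17 alternatives). With 0 counts in both bases, whether IFNγ acted differently on Acod1 in the genotypes could not be measured. Of the 12 macrophage and leukocyte markers, 10 had 0 counts in all 6 libraries with IFNγ, while Cd68 averaged 6.14 CPM in sgCtrL and 5.79 CPM in Sin3Bsg1 and Mrc1 20.3 and 29.0 CPM, and their part in the Acod1 result was not tested. Acod1 overlaps the non-coding gene Gm41235 on the other strand, and as for Nos2 their reads cannot be told apart.

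**Figure D2:**
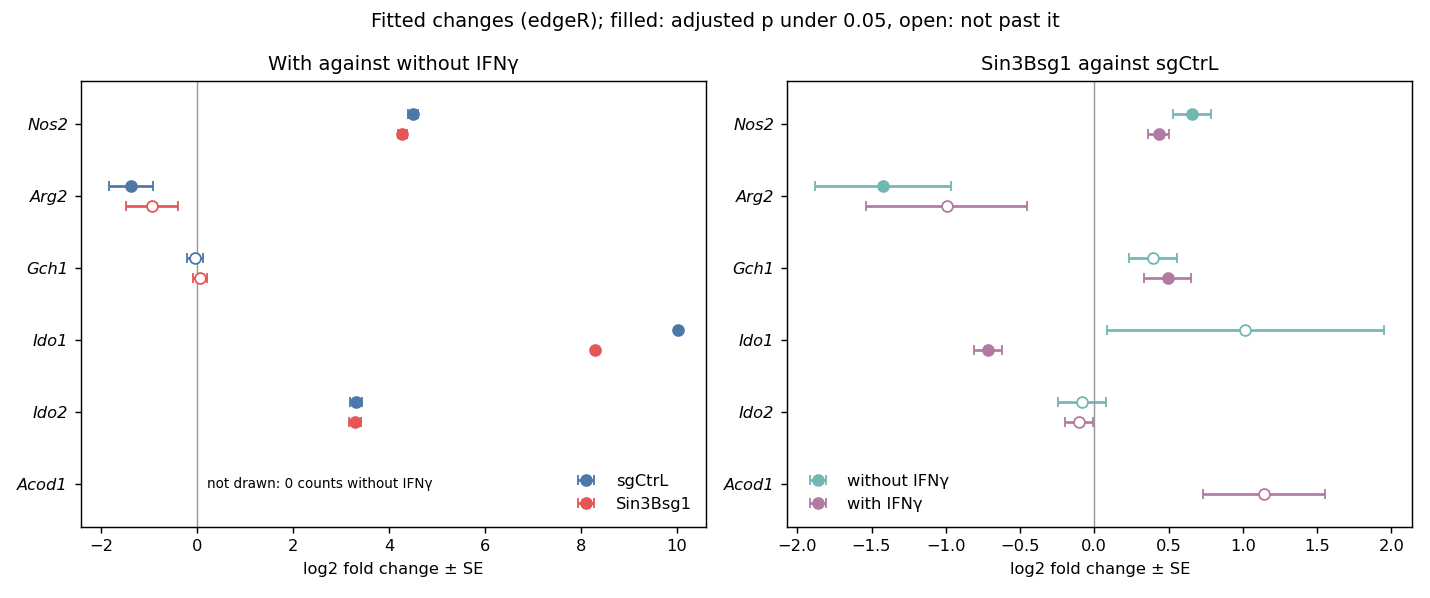
Fitted log2 fold changes (points) with their standard errors (bars) for the 6 genes tested, with against without IFNγ in each genotype (left) and Sin3Bsg1 against sgCtrL in each condition (right), filled where the adjusted p was under 0.05 and open where not, with Acod1 left out where its base was 0 counts and no bar for the IFNγ response of Ido1, whose base was 4 and 10 counts. Ido1, Nos2 and Ido2 lie far right of 0 in both genotypes, and with IFNγ the guide difference is positive for Nos2 and negative for Ido1.

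Counted by guide, 2 of the 6 genes tested were higher with IFNγ in Sin3Bsg1 (Nos2 and Gch1) and 1 was lower (Ido1), where 8.62% of all genes were higher, 7.9% lower and 16.5% either. Without IFNγ, 1 was higher (Nos2) and 1 lower (Arg2), where 7.89% of all genes were higher, 9.33% lower and 17.2% either. The median log2 difference of the 6 genes was 0.17 with IFNγ against 0.00 over all genes tested, and that of the 5 with counts without IFNγ was 0.39 against −0.01. Of the 5 genes whose interaction could be measured, 0 passed the test in edgeR, which 0.114% of all genes passed, 0 had an unadjusted p under 0.05, and 0 passed under DESeq2 or any other alternative. These contrasts share libraries, so the counts are not independent of each other.

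To set the levels of different genes side by side, counts were divided by the deposited gene lengths (TPM, counts per length scaled to a fixed sum). With IFNγ in sgCtrL the order was Ido1 (97.4 ± 3.96 TPM, SD, n = 3), Nos2 (52.2 ± 3.02), Ido2 (27.5 ± 2.70) and Gch1 (2.66 ± 0.303), and none of these overlapped the next. Arg2 (0.787 ± 0.442), Acod1 (0.557 ± 0.264), Arg1, Ass1 and Kynu followed, and from Arg2 on each overlapped its neighbour. In Sin3Bsg1 with IFNγ, Nos2 (70.7 ± 5.07 TPM) stood above Ido1 (59.5 ± 2.54) and Ido2 (25.6 ± 0.117), again without overlap, followed by Gch1 (3.75 ± 0.590), Acod1 (1.25 ± 0.0906) and Arg2 (0.386 ± 0.0981). The first 2 places were thus exchanged between the genotypes. Without IFNγ the leading levels were close together, at 2.16 to 2.92 TPM for Ido2, Gch1, Nos2 and Arg2 in sgCtrL, each overlapping the next.

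**Figure D3:**
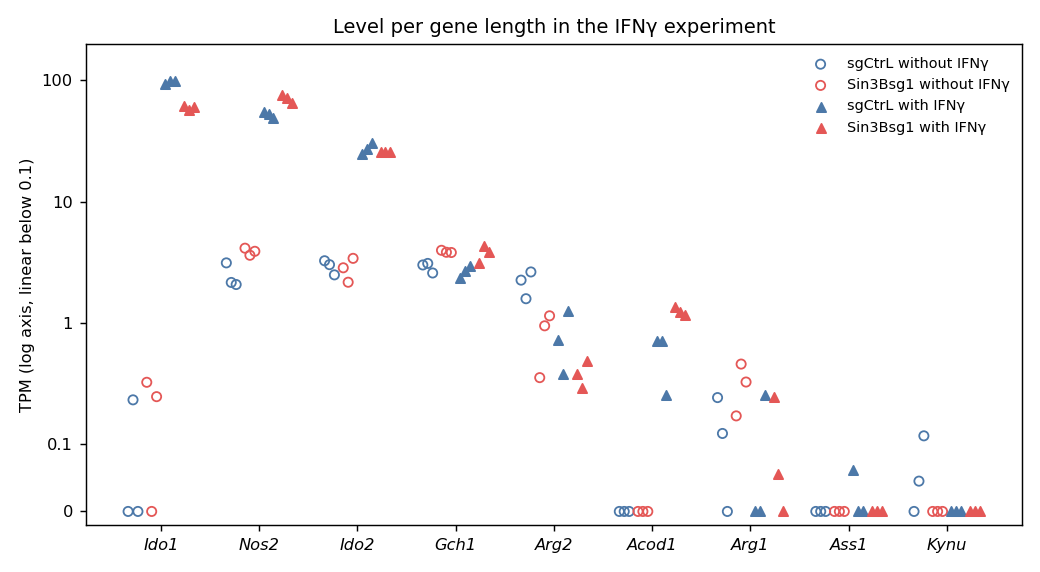
TPM of the 9 genes in the 12 libraries of the IFNγ experiment, ordered by their mean in sgCtrL with IFNγ, on an axis that is logarithmic above 0.1 and linear below it, with circles for libraries without and triangles for libraries with IFNγ. Ido1 moves from at most 0.324 TPM to at least 56.6 TPM, while Gch1 keeps its place between 2.36 and 4.29 TPM.

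The RefSeq promoter table, which covers 250 bases before to 50 bases after each gene start, held windows for 3 of the 9 genes, and these happened to be 1 gene that IFNγ switched on (Acod1), 1 that was expressed and not induced (Gch1) and 1 that stayed silent (Ass1). A link between these letters and the IFNγ response was not tested. The 250 bases before each start are shown 5′ to 3′ so that the 3 stretches can be read side by side, with the cores of the TATA box (TATAAA), the GC box (GGGCGG) and the CCAAT box in capitals wherever they occur on either strand (GRCm38.p6, chr14:103046762-103047011 plus strand for Acod1, chr14:47189414-47189663 minus strand for Gch1, chr2:31470020-31470269 plus strand for Ass1).
Acod1: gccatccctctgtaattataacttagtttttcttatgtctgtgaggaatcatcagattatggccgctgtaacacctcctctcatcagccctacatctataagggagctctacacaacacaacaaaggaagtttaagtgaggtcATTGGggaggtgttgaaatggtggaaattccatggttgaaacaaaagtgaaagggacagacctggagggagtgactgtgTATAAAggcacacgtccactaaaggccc
Gch1: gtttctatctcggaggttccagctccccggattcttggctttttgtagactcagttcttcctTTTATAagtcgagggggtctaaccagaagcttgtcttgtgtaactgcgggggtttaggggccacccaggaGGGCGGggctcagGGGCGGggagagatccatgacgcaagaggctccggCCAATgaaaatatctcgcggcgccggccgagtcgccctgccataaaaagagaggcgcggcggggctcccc
Ass1: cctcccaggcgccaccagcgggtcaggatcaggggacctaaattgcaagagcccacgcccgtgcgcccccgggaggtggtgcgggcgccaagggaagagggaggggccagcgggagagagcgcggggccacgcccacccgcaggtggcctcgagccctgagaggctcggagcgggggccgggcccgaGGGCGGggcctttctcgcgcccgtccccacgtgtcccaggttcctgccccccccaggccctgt

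Acod1 had 44.4% G and C in this stretch, with the TATA core 23 to 28 bases before the start and CCAAT on the opposite strand 103 to 107 bases before it. Gch1 had 59.2% G and C, with GC box cores at 100 to 105 and 113 to 118 bases, a CCAAT core at 66 to 70 bases and the TATA core on the opposite strand at 183 to 188 bases before the start. Ass1 had 75.6% G and C, with a GC box core at 58 to 63 bases before the start. Only exact matches were marked, on either strand and at any distance from the start. Near matches stay in lower case, and whether any marked core is in use was not tested. Of the 32851 windows in the table, 12.4% held the TATA core, 32.7% the GC box core and 33.8% the CCAAT core in these 250 bases, and these 3 motifs were chosen after the windows were read. GAAANNGAA, part of the interferon-stimulated response element, was sought on both strands of the whole windows, and none of the 3 genes held it. Of all windows 8.56% held it, and a motif that is not in these letters may lie elsewhere.

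The genes whose log2 CPM followed each member most closely over the 12 libraries were drawn from 10502 or 10503 genes with a mean of at least 5 CPM. Libraries in these correlations share 4 groups and 1 treatment, so any induced gene scores high, and the values are a description. For Nos2 they were Tap2, H2-T23 and H2-K1 (Pearson r 0.9978, 0.9977 and 0.9972), all of antigen presentation. For Ido1 they were Trim12c, Il18bp and Gbp4 (0.9959, 0.9946 and 0.9931), and for Ido2 Il18bp, Ifit3 and Gbp4 (0.9987, 0.9982 and 0.9978), with Il18bp and Gbp4 in both. For Acod1 they were Lgals3bp, Ptprr and Xdh (0.9858, 0.9842 and 0.9831). Gch1 and Arg2, which IFNγ did not raise, gave lower values, with Mydgf, Tpt1 and Ppib for Gch1 (0.929, 0.926 and 0.919) and Acat1, Txndc11 and Cyria for Arg2 (0.929, 0.926 and 0.916).

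Of 60 genes in 4 lists, 47 were tested in the IFNγ experiment, of which 12 rose and 8 fell with IFNγ in sgCtrL and 11 rose and 5 fell in Sin3Bsg1, beside 15.7% and 14.5% of all genes tested in sgCtrL and 16.1% and 12.3% in Sin3Bsg1. The median log2 fold change of the 47 was −0.05 in sgCtrL and −0.03 in Sin3Bsg1. Between guides with IFNγ, 5 of the 47 were higher and 5 lower in Sin3Bsg1, beside 8.62% and 7.9% of all genes tested. Without IFNγ 4 were higher and 4 lower, beside 7.89% and 9.33%. In the untreated experiment 16 of 47 tested were higher and 5 lower with all libraries, beside 15.1% and 16%.

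In the arginine and nitric oxide list, 16 of 18 genes were tested, and 5 rose and 2 fell in sgCtrL while 4 rose and 2 fell in Sin3Bsg1 (medians −0.05 and 0.00). Of all genes tested, 15.7% rose and 14.5% fell in sgCtrL, and 16.1% and 12.3% in Sin3Bsg1. The arginine transporter Slc7a1 rose from 114 ± 5.18 to 166 ± 10.5 CPM in sgCtrL (log2 0.54, SE 0.06, adjusted p = 3.54e-06) and by 0.45 in Sin3Bsg1 (adjusted p = 2.17e-05). Odc1, which turns ornithine into putrescine, rose by 0.39 in sgCtrL (adjusted p = 0.00111) and 0.28 in Sin3Bsg1 (adjusted p = 0.0114), and of the same polyamine branch Sms and Azin1 rose in both genotypes and Srm rose in sgCtrL and did not pass in Sin3Bsg1 (adjusted p = 0.0666). Asl fell by 0.40 and 0.30 on the log2 scale (adjusted p = 0.00132 and 0.00959), and Gamt, of creatine synthesis, fell by 0.49 and 0.64 (adjusted p = 0.0144 and 0.00232). The other nitric oxide synthases, Nos1 and Nos3, were not tested, with at most 4 and 12 counts in a library. Between guides, Gatm, the amidinotransferase that uses arginine for creatine, was higher in Sin3Bsg1 by 1.08 with IFNγ (adjusted p = 0.00503) and 1.30 without it (adjusted p = 0.00122), at means of 1.41 to 3.45 CPM. Ddah1 was lower with IFNγ (−0.45, adjusted p = 0.0179), Ddah2 was lower without it (−0.23, adjusted p = 0.00408), both enzymes that clear inhibitors of nitric oxide synthase, and Slc7a1 was higher without IFNγ (0.23, adjusted p = 0.0149).

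All 7 genes of the tetrahydrobiopterin list were tested, and with IFNγ 3 fell and none rose in sgCtrL while 2 fell and 1 rose in Sin3Bsg1 (medians −0.27 and −0.11). The shares of all genes tested were 14.5% falling and 15.7% rising in sgCtrL, and 12.3% and 16.1% in Sin3Bsg1. Gchfr, the feedback regulator that binds GCH1, fell from 19.8 ± 2.48 to 14.1 ± 1.43 CPM in sgCtrL (log2 −0.49, adjusted p = 0.00143) and by 0.60 in Sin3Bsg1 (adjusted p = 2.13e-04). Pcbd1, of cofactor recycling, fell by 0.28 in sgCtrL (adjusted p = 0.0272), and so did Spr. In Sin3Bsg1, Pts, which acts after GCH1, fell by 0.33 (adjusted p = 0.0235). Pts was higher under the Sin3B guide in both conditions (0.44 with IFNγ, adjusted p = 0.00889, and 0.50 without it, adjusted p = 0.00305), Spr was higher with IFNγ (0.18, adjusted p = 0.0455), and Pcbd1 was lower without it (−0.31, adjusted p = 0.0217).

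In the tryptophan and kynurenine list only 10 of 21 genes could be tested, and 5 rose and 1 fell with IFNγ in each genotype (medians 0.15 and 0.11). Beside them, 15.7% of all genes tested rose and 14.5% fell in sgCtrL, and 16.1% and 12.3% in Sin3Bsg1. Wars1, the tryptophanyl-tRNA synthetase, rose from 89.2 ± 1.005 to 678 ± 57.8 CPM in sgCtrL (log2 2.93, SE 0.06, adjusted p = 1.08e-15) and from 90.8 ± 4.27 to 895 ± 1.30 CPM in Sin3Bsg1 (log2 3.30, SE 0.06, adjusted p = 2.22e-16). With IFNγ it was 1.32-fold higher in Sin3Bsg1 (log2 0.40, adjusted p = 7.58e-05). The interaction of 0.38 did not pass (SE 0.08, adjusted p = 0.138), whereas it passed under DESeq2, without a low-count filter and without sgCtrL with IFNγ replicate 1 (0.36, 0.37 and 0.45, adjusted p = 0.0126, 0.0011 and 4.71e-04). Kyat3, a kynurenine aminotransferase, rose by 1.17 in sgCtrL and 1.28 in Sin3Bsg1 (adjusted p = 6.06e-07 and 1.31e-07), and the tryptophan transporter subunits Slc7a5 and Slc3a2 and the aryl hydrocarbon receptor target Cyp1b1 rose in both. Other targets of this receptor in the list did not rise. Tiparp (0.06 in sgCtrL and 0.005 in Sin3Bsg1) and Cyp1a1 (−1.18 and −0.51) did not pass the threshold, and Ahrr was not tested. Afmid, which makes kynurenine from the product of IDO1, fell by 0.19 and 0.36 (adjusted p = 0.0307 and 2.42e-04).

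The 11 genes of this list that were not tested hold most of the lower kynurenine pathway. Kmo, Slc7a8 and Tph1 had 0 counts in all 12 libraries, and Tdo2, Haao, Qprt, Acmsd, Aadat, Il4i1, Tph2 and Ahrr had at most 7 counts in any. Kmo, Kynu, Haao and Qprt, which carry kynurenine on toward NAD, were thus all under the filter while Ido1 and Ido2 rose. Between guides, Cyp1b1 was lower in Sin3Bsg1 in both conditions (−0.43 with IFNγ, adjusted p = 2.42e-05, and −0.47 without it, adjusted p = 1.01e-05), and with IFNγ Ahr, the receptor for kynurenine and other ligands, was lower too (−0.29, adjusted p = 0.0328), as was its target Tiparp. Cyp1a1, another target of the receptor, did not pass in either condition (0.37 with IFNγ and −0.30 without it). In the untreated experiment Cyp1a1 was called higher in Sin3Bsg1 and Cyp1b1 lower.

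All 14 genes of the itaconate and tricarboxylic acid cycle list were tested, and 2 rose and 2 fell with IFNγ in sgCtrL while 1 rose and none fell in Sin3Bsg1 (median −0.05 in both). These counts are no more than the shares of all genes tested, 15.7% rising and 14.5% falling in sgCtrL and 16.1% and 12.3% in Sin3Bsg1. Cs, the citrate synthase, rose by 0.22 in sgCtrL and 0.20 in Sin3Bsg1 (adjusted p = 0.00396 and 0.0091), and the citrate carrier Slc25a1 rose by 0.25 in sgCtrL (adjusted p = 0.00829). Idh3g and Sdhc, subunits of isocitrate and succinate dehydrogenase, fell by 0.23 and 0.17 in sgCtrL (adjusted p = 0.00803 and 0.0153). Between guides Cs was lower in Sin3Bsg1 in both conditions (−0.22 with IFNγ, adjusted p = 0.00886, and −0.19 without it, adjusted p = 0.0186), Sdhc was higher with IFNγ (0.23, adjusted p = 0.00337) and Idh3a was higher without it (0.18, adjusted p = 0.0337). Suclg1, Suclg2, Sucla2 and Clybl, of which the first 3 are subunits of the ligases that join itaconate to coenzyme A and Clybl acts after them, did not pass the test with IFNγ in either genotype.

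**Figure D4:**
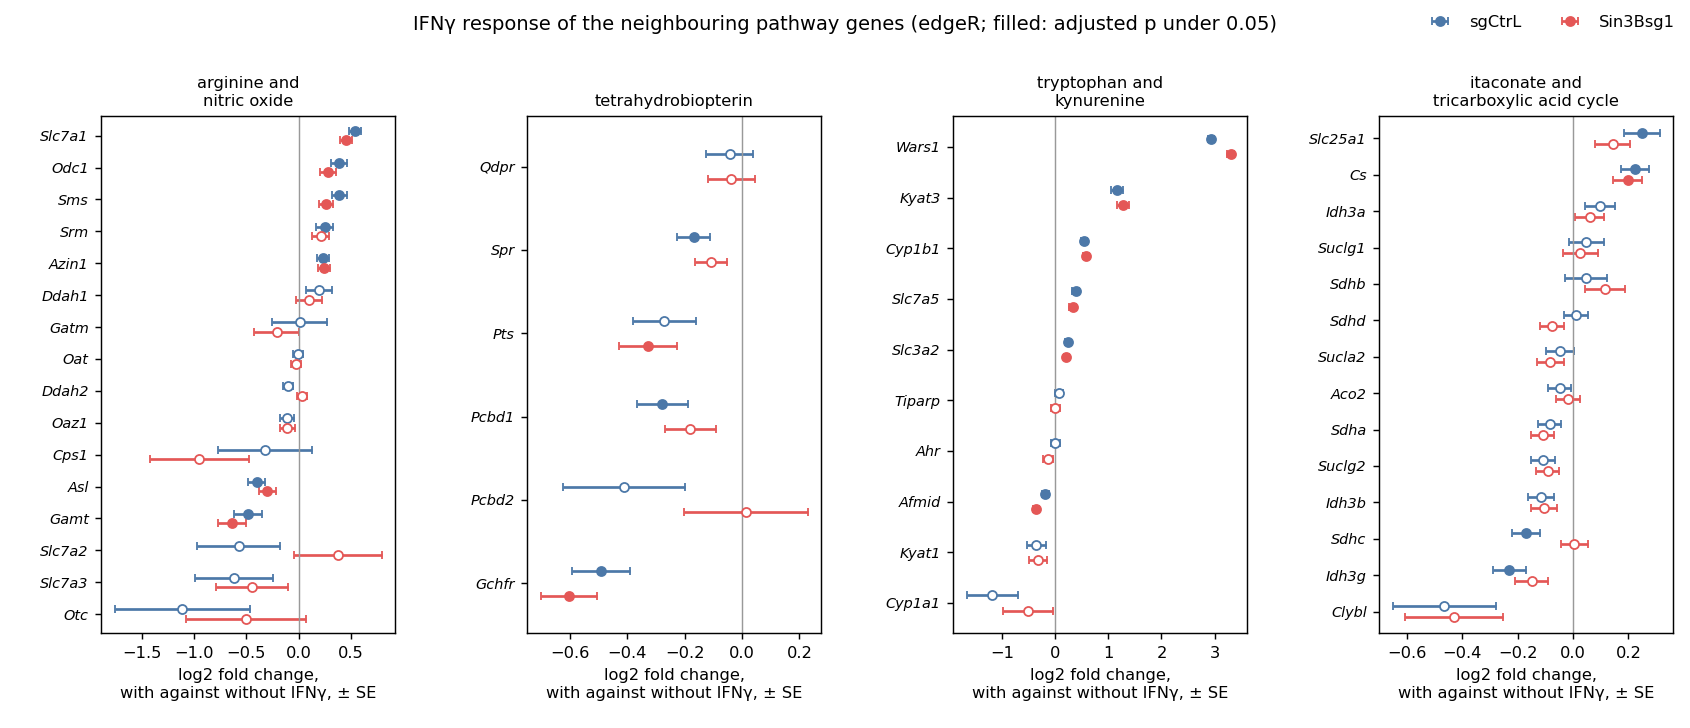
Log2 fold change with against without IFNγ (points) and its standard error (bars) for the other pathway genes tested, with 1 not reported here, in 4 lists, blue for sgCtrL and red for Sin3Bsg1, filled where the adjusted p was under 0.05. Wars1 at 2.93 and 3.30 and Kyat3 at 1.17 and 1.28 are the largest rises that passed, and the largest falls that passed are Gamt at −0.64 and Gchfr at −0.60 in Sin3Bsg1.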

How the data were processed

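The submitters deposited estimated counts of reads per gene, without normalization, in 1 table per experiment. Their processing notes name fastp, HISAT2, StringTie, DESeq2 and mm39, whereas the methods of the study name HISAT2 on mm9 and featureCounts on uniquely mapped reads. The annotation, strand setting and versions are not given in the sources used here. The columns named for a lacZ guide were used as sgCtrL, the sole guide beside Sin3Bsg1 in either table. Group mean columns were not used, and 324 assembled loci without a gene (0.615 to 0.677% of counts) were left out of the untreated table. Coordinates are from GENCODE M39 on GRCm39, since the tables give none.

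Counts were rounded and each table was fitted with edgeR 4.0.16 (TMM, filterByExpr, glmQLFit, glmQLFTest, two-sided, Benjamini-Hochberg adjustment over all genes tested, threshold 0.05) in R 4.3.3, as a mean per group with contrasts. Standard errors are the log2 fold change divided by the root of the test's F, which is too small where a group has few counts, so none is given for the IFNγ response of Ido1. Those given for the guide difference of Ido1 without IFNγ and for its interaction rest on the same few counts and may be too small as well. The fits were tested on simulated data. The labels do not say that replicates are separate cultures, so p-values measure the spread between these samples, which may be technical. CPM used TMM library sizes and TPM the deposited lengths. The floor was 3 counts per library, and 95% Clopper-Pearson intervals were computed for count ratios. Correlations used log2 CPM with a prior count of 2.

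The 9 genes, the pathway, treatment and marker lists and the tests were chosen with earlier results of these data known. Named genes were all 9, and for each of the 4 pathway lists up to 2 of the largest rises and falls past the threshold in each contrast of the IFNγ experiment. Others named from the lists were chosen after their values were seen. Alternatives were DESeq2 1.42.0, its size factors, no filter, at least 10 counts in every library, a replicate block, fits of 2 groups, CPM on total counts, and leaving out each library. The planned comparison of protein sequences was not run. Tables were made with Python 3.11.15 and pandas 2.3.3, and figures with matplotlib 3.10.9. Some items are not reported here.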

Additional observations from a re-analysis of the deposited data

How the results depend on the processing

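The rises of Nos2, Ido1, Ido2 and Acod1 with IFNγ kept direction and threshold in both genotypes under every alternative that could test them, as did the differences of Nos2 and Ido1 between guides with IFNγ. With DESeq2's size factors no count left the range of 1.5 times. Requiring at least 10 counts in every library removed Ido1, Acod1 and Arg2, so 2 of the 9 genes rose in sgCtrL and in Sin3Bsg1, none fell in sgCtrL and none was lower in Sin3Bsg1 with or without IFNγ, and 9 pathway genes fell in Sin3Bsg1. DESeq2 gave 8 pathway genes lower with IFNγ in Sin3Bsg1, 1 of the 9 genes higher in Sin3Bsg1 with IFNγ, 32 genes and 1 pathway gene for the interaction, and none of the 9 lower in the untreated experiment. Without a filter there was 1 of the 9 higher in Sin3Bsg1 with IFNγ, 7 pathway genes lower in Sin3Bsg1 without IFNγ, and 110 genes and 1 pathway gene for the interaction. With only the 2 groups compared, 1500 genes, 1 of the 9 and 3 pathway genes higher were called between guides with IFNγ, and 3996 genes with 9 pathway genes higher and 7 lower without IFNγ.

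Leaving out each library gave 0 to 1 of the 9 genes and 3 to 12 pathway genes lower with IFNγ in sgCtrL, and 3 to 9 pathway genes lower in Sin3Bsg1. Between guides with IFNγ it gave 1 to 2 of the 9 higher, 4 to 10 pathway genes higher and 2 to 6 lower, and without IFNγ 0 to 1 of the 9 lower, 2 to 7 pathway genes higher and 2 to 6 lower. For the interaction it gave 1 to 33 genes (17 with all libraries and 33 without sgCtrL with IFNγ replicate 1) and 0 to 1 pathway genes. In the untreated experiment it gave 0 to 1 of the 9 higher, 0 to 1 lower, 10 to 15 pathway genes higher and 3 to 5 lower. The cause was not tested for any of these. Small uncalled log2 changes turned sign in 9 fits that left out 1 library. Over these fits the IFNγ response of Gch1 ran from −0.119 to 0.0236 in sgCtrL and from −0.0826 to 0.165 in Sin3Bsg1, the guide difference of Ido2 without IFNγ from −0.23 to 0.0685, and the interaction from −0.0351 to 0.213 for Gch1 and from −0.172 to 0.126 for Ido2.

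Deviations of equally numbered libraries had correlations of −0.029 to 0.119, the highest for replicate 1 between guides with IFNγ. The replicate numbers thus showed little pairing of the samples. Adding them as a replicate block left 1 of the 9 genes higher in Sin3Bsg1 with IFNγ, since Gch1 was at an adjusted p of 0.0556, and made 1 of the 9 higher in the untreated experiment, Gch1 at 0.83 (adjusted p = 0.0468), and it changed no other call on the 9 genes. Depth limits Arg1, Ass1 and Kynu in all groups, and Ido1 and Acod1 without IFNγ. As group means, 3 counts correspond to 0.125 to 0.149 CPM in the IFNγ experiment. Changes below that level could have gone unseen, and so could larger ones in genes of few counts. Fits of only the groups compared were not made for the interaction and the untreated experiment.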
